A study of Mus musculus with 8 samples.

Results

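Cells of the distal convoluted and connecting tubule were picked out of a pooled single-cell RNA-seq experiment on embryonic mouse kidneys by their transcripts, and 259 of the 6495 cells assigned to a mouse (3.99%) met the rule. The rule asked for at least 5 unique molecular identifiers (UMIs, the count of captured RNA molecules) of *Slc12a3*, *Tmem52b* and *Emx1* together, for fewer than 8 of *Umod* and *Slc12a1*, which mark the loop of Henle, and for fewer than 10 of *Aqp2*, *Hsd11b2* and *Aqp3*, which mark the collecting duct. These 8 genes chose the cells by their measured values, so their levels are a description and were not tested. The cells are called selected distal cells here. They were compared with 323 loop of Henle cells, 499 collecting duct principal cells and 553 endothelial cells, each chosen by a rule of the same kind. Each of these rules asked for fewer than 5 UMIs of *Slc12a3*, *Tmem52b* and *Emx1* together, so low levels of these genes there follow from the choice.

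The cells assigned to mice came from the kidneys of 4 male embryos, at E17.5 by the sample labels and at a later stage by the study's methods. The pool also held cells with tags that the deposited list assigns to no mouse. Mice 1 and 2 were *Trim28* Δ/Δ, with both floxed *Trim28* alleles recombined by a Six2-cre transgene, and mice 3 and 4, named wt in the tag list, were controls, by the labels *Trim28* f/f with floxed alleles that were not recombined. The *Six2* promoter drives Cre in nephron progenitors, so the gene is removed in the tubules that arise from them, whereas the ureteric bud and its collecting ducts, the stroma and the endothelium keep it. The study asked what the loss of *Trim28* in nephron progenitors does to the developing kidney. The mouse is the replicate, with n = 2 for each genotype. The cells of each mouse carried a cell multiplexing oligonucleotide (CMO), a DNA tag in the cell membrane whose letters assign a barcode to its mouse. Every value per mouse rests on these 4 tags, which are shown for that reason, 5′ to 3′ as the deposited list gives them.
CMO305, mouse 1: cgcgatatggtcgga
CMO308, mouse 2: cggattccacatcat
CMO306, mouse 3: aagatgaggtctgtg
CMO307, mouse 4: aagctcgttggaaga

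The distal convoluted tubule reabsorbs sodium chloride through the thiazide-sensitive cotransporter encoded by *Slc12a3* and takes up magnesium through *Trpm6*. The connecting tubule behind it reabsorbs calcium through the channels *Trpv5* and *Trpv6*, carries it across the cell on calbindins (*Calb1*, *S100g*) and releases it through the exchanger *Slc8a1* and the pump *Atp2b1*. TRIM28 is a corepressor that KRAB zinc finger proteins bring to DNA, where it keeps transposable elements and imprinted loci silent.

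Of 11 distal markers, 8 had their highest level, over all mice together, in the selected cells, among the selected, loop, duct and endothelial cells. Of these, 5 were among the 8 that the rule did not use. By mouse, *Trpv5* and *Trpm6* were highest there in 4 of 4 mice, *S100g* and *Calb1* in 3 and *Pvalb* in 2. Levels are given as CPM, the UMIs of a gene per 1000000 gene UMIs of the same cells, and are not scaled by transcript length, so they are compared between cells and not between genes. *Slc12a3* reached 445 CPM against 12.2 CPM in endothelial cells, and *Tmem52b* 648 CPM against 14.3 CPM. Both are rule genes, which the rule for endothelial cells limited, so this contrast follows from the choice of cells. *Trpv5*, which the rule did not use, had UMIs in 26 of the 259 cells (10.0%) against 0.362% of endothelial cells, and stood at 7.61 CPM against 0.211 CPM. *S100g* was at 2219.95 CPM in the selected cells, 1001 CPM in loop cells, 246 CPM in duct cells and 150.5 CPM in endothelial cells. The other 3 markers went against the label. *Tfap2b*, *Pou3f3* and *Wnk4*, a pair of transcription factors and a kinase that regulates the cotransporter, were higher in loop cells (347, 187 and 64.1 CPM) than in the selected cells (309, 157 and 40.3 CPM). *Pvalb*, a calcium-binding protein of the mature early distal convoluted tubule, was found in 2 of the cells, and *Trpm6* stood at 3.81 CPM against 0.634 to 1.02 CPM in the other classes.

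**Figure D1:**
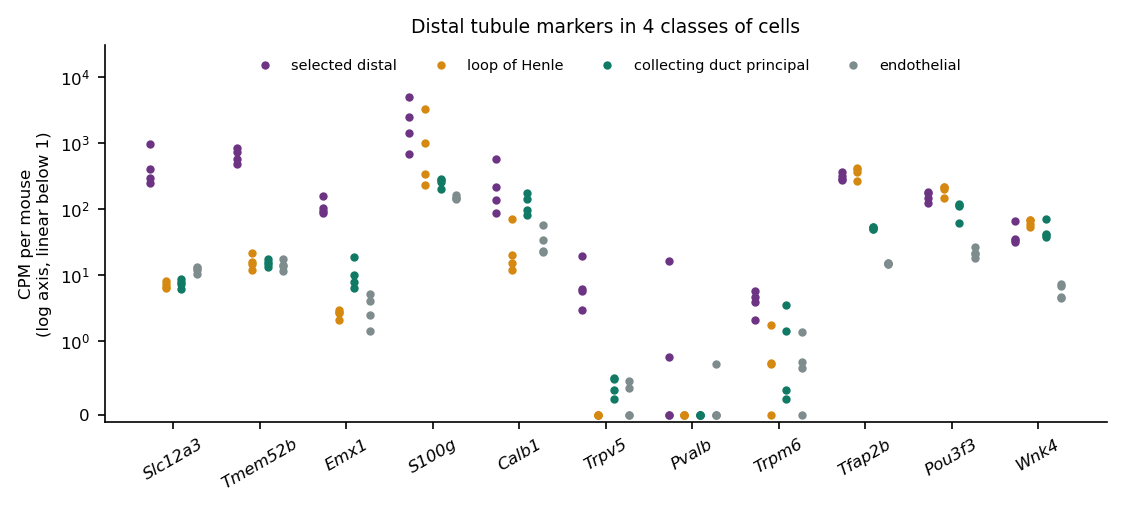
CPM of 11 distal tubule markers (log axis, linear below 1) in selected distal, loop of Henle, collecting duct principal and endothelial cells, with 1 point per mouse. *Slc12a3*, *Tmem52b* and *Emx1*, whose sum was used to choose all classes, and *Trpv5* stand far above the other classes in the selected cells. *Tfap2b*, *Pou3f3* and *Wnk4* do not.

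Only 48.6% of the selected cells held a UMI of *Slc12a3*, whereas 99.2% held *Tmem52b* and 65.3% *Emx1*. Endothelial cells should lack these genes and were chosen with fewer than 5 UMIs of them together. They held *Slc12a3* in 18.3%, *Tmem52b* in 21.5% and *Emx1* in 5.42%. The median depth was 12718 UMIs per endothelial cell and 19843 UMIs per selected cell. After every cell was thinned to 6800 UMIs, *Slc12a3* was found in 36.7% of selected and 7.96% of endothelial cells. RNA free in the suspension, taken from barcodes with 10 to 100 UMIs, held *S100g* at 1526 CPM, above its level in the selected cells of mouse 2 (678 CPM) and mouse 3 (1410 CPM), so that a single UMI of *S100g* marks no cell, and 88.1% of endothelial cells held one.

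Cells at the limits of the rule differed in kind. The 28 cells with a sum of exactly 5 UMIs and the 55 with 4, just outside, held *Slc12a3* in 50% and 40% of cells, and their *S100g* stood at 319 and 379 CPM. The limit on collecting duct genes left out 123 cells with a sum above 4, of which 95.9% held *Emx1*, and in which *S100g* reached 18115 CPM, so that many cells richest in *S100g* lie outside the selected cells. Another 123 were left out by the limit on *Umod* and *Slc12a1*, with *S100g* at 691 CPM and *Emx1* in 25.2% of cells. Just inside the duct limit, at 9 UMIs, 4 cells stood at 21291 CPM of *S100g*, and just outside it, at 10 UMIs, 5 cells stood at 1659 CPM.

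Apart from the rule genes, the selected cells were led, in a ranking against all 6236 other cells with 20 CPM added to both, by *Sall3* (115 against 9.83 CPM), *Pgam2* (129.9 against 16.9 CPM), *Tfap2b*, *Npb* (153 against 30.5 CPM), *Defb1* (164 against 41.2 CPM) and *Sct*, each higher in 4 of 4 mice. These genes were named after their values were seen. *Sall3* and *Tfap2b* encode transcription factors, *Pgam2* the muscle form of phosphoglycerate mutase, *Defb1* a beta-defensin and *Sct* secretin. *Mecom* and *Hoxd11*, further transcription factors, followed at 384 and 183 CPM. Some leading genes came from single mice and not from all of them. *Ly6d* had all its UMIs of the selected cells in mouse 3 (123 CPM), and *Kap*, an androgen-regulated proximal tubule gene, reached 555.5 CPM in mouse 4 and between 11.7 and 34.8 CPM in the others.

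The selected cells were not uniform, and *Slc12a3* split them along a gradient. No UMI of it was found in 133 cells, 1 to 4 in 64 and 5 or more in 62. The 62 richest cells were led by *Pgam2*, at 563, 849, 448 and 704 CPM in mice 1 to 4, against 26.0, 19.9, 4.63 and 7.85 CPM in the cells without *Slc12a3*. *Defb1* (692 against 18.8 CPM), *Spp1*, which encodes osteopontin (1298 against 87.8 CPM), and *Ppp1r1a*, a protein phosphatase inhibitor (305 against 20.9 CPM), were likewise higher in 4 of 4 mice. Genes of salt and calcium transport went the same way. *Fxyd2* of the sodium pump stood at 3253 against 516 CPM, where endothelial cells held 375 CPM and RNA free in the suspension 2564 CPM. The potassium channel *Kcnj1* stood at 162 against 8.52 CPM and *Slc8a1* at 286 against 21.4 CPM. The calbindins followed less evenly: *S100g* reached 10899 CPM in mouse 1, 10886 CPM in mouse 4 and 5121 CPM in mouse 3, but 901 CPM in mouse 2, whose level in the cells without *Slc12a3* was 498 CPM.

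Other genes were higher in the cells without *Slc12a3*. *Mdk*, which encodes the growth factor midkine, stood at 1389, 1299.9, 1249 and 1309 CPM in mice 1 to 4 against 97.9, 129.97, 217 and 208 CPM in the 62 richest cells. *Stmn1*, a microtubule regulator of dividing cells (971 against 170 CPM), *Top2a*, a topoisomerase of dividing cells (526 against 94.8 CPM), *Hist1h1b* (493 against 41.0 CPM) and *Sct* (199.5 against 21.7 CPM) were higher in 4 of 4 mice. *Bmp2* (103 against 8.04 CPM), *Cthrc1* and *Gfra1* belonged to the same side. Over the 259 cells, log-transformed *Slc12a3* correlated with *Pgam2* (Pearson's r = 0.81) and against *Mdk* (r = -0.70), where the points share 1 library, differ in depth and hold many zeros. Summed over lists, DCT transport genes, with *Slc12a3* itself among them, stood between 13868 and 17179 CPM in the richest cells of the 4 mice and between 1791 and 3060 CPM in the cells without *Slc12a3*. The same list summed to 10259 CPM in loop cells and to 5381 CPM in all selected cells. Loop of Henle markers went the same way, with 2036 to 2403 CPM in the richest cells and 501 to 1308 CPM in the cells without *Slc12a3*. G2/M phase genes stood between 1746 and 4523 CPM against 7764 and 9847 CPM, and ribosomal protein genes between 132795 and 205048 CPM against 239274 and 290269 CPM. Since all genes of these cells depend on how they were chosen and grouped, these values carry no test.

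**Figure D2:**
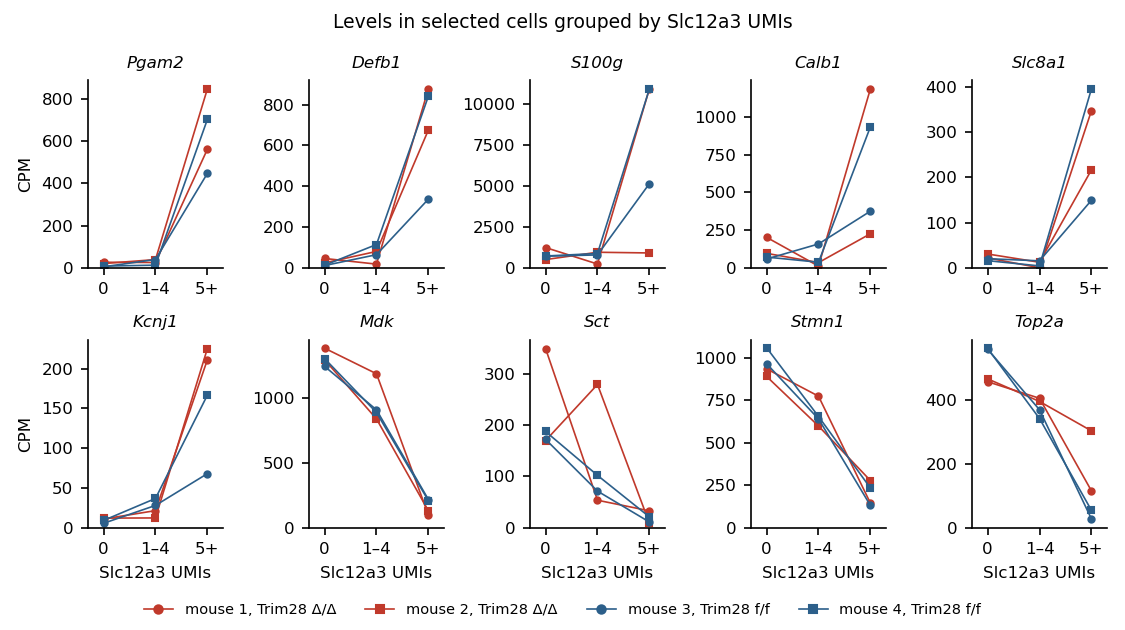
CPM of 10 genes in selected cells without, with 1 to 4 and with 5 or more *Slc12a3* UMIs, with 1 line per mouse. *Pgam2*, *Defb1*, *Slc8a1* and *Kcnj1* stand highest and *Mdk*, *Stmn1* and *Top2a* lowest in the last group of every mouse, while *S100g* of mouse 2 stays near 901 CPM there.

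The share of selected cells did not separate the genotypes. It was 4.79% in mouse 1 (56 of 1168 cells, 95% Clopper-Pearson interval 3.64 to 6.18), 3.72% in mouse 2 (48 of 1289, 2.76 to 4.91), 4.10% in mouse 3 (102 of 2490, 3.35 to 4.95) and 3.42% in mouse 4 (53 of 1548, 2.57 to 4.45). The means were 4.26% ± 0.757 (SD, n = 2) in *Trim28* Δ/Δ and 3.76% ± 0.476 (SD, n = 2) in *Trim28* f/f mice, and the groups overlapped (difference 0.499 percentage points, two-sided exact permutation test, p = 0.667, where the smallest possible p is 0.333). Without mouse 1 the difference was -0.0363 points. The intervals cover counting error only.

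Mouse 1 stood apart in the makeup of these cells. In this *Trim28* Δ/Δ mouse 46.4% of the selected cells (26 of 56, interval 33.0 to 60.3) held 5 or more *Slc12a3* UMIs, against 14.6% in the other *Trim28* Δ/Δ mouse (6.07 to 27.8), 17.6% in mouse 3 and 20.8% in mouse 4. Cells without *Slc12a3* made up 32.1% of its selected cells and between 54.9% and 58.5% in the others. Its selected cells also had a median of 5.63% mitochondrial UMIs, against 3.0% to 3.73% in the other mice, and the part of this in the difference was not tested.

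**Figure D3:**
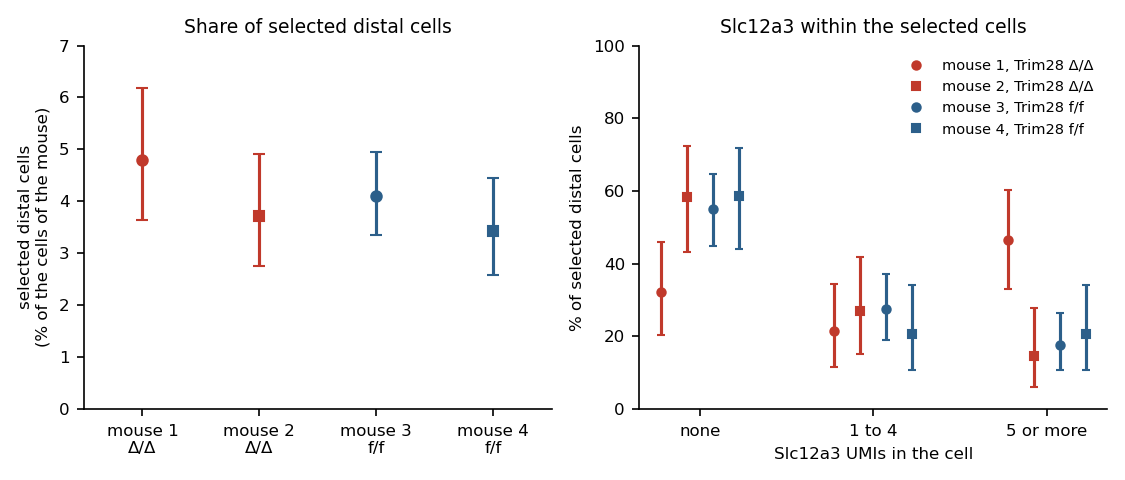
Left, selected distal cells as a percentage of the cells of each mouse. Right, percentage of selected cells with no, 1 to 4 and 5 or more *Slc12a3* UMIs per mouse. Points are single mice and bars 95% Clopper-Pearson intervals, and mouse 1 lies at 46.4% in the last group, above the other mice at 14.6% to 20.8%.

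The share of selected cells rich in calbindins, with at least 10 UMIs of *Calb1* and *S100g* together after thinning to 6800 UMIs, was 23.2%, 14.6%, 21.6% and 34.0% in mice 1 to 4. The mean of the *Trim28* Δ/Δ mice minus that of the *Trim28* f/f mice was -8.87 percentage points, and the groups overlapped (two-sided exact permutation test, p = 0.667). In endothelial cells the same measure gave between 0% (0 of 170 cells in mouse 3, which allows a share of up to 1.76%) and 1.2%. In loop cells it gave 25.7%, 15.5%, 3.25% and 5.88% in mice 1 to 4 and in duct cells between 2.08% and 3.87%, so that it is not particular to the selected cells.

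Before genes are compared, the cells of other types among the selected cells need their values. Of the 259 cells, 12 held at least 50 UMIs of 10 proximal tubule markers together, spread over the mice as 3, 4, 3 and 2 cells. These 12 cells carried 81.0% of all UMIs of these markers, had a median rule sum of 5 UMIs against 14 in the rest and a median of 46824.5 UMIs in all, and 4 of them were marked as doublets by Scrublet. The summed markers stood at 1303 and 2057 CPM in the *Trim28* Δ/Δ mice and at 317 and 783 CPM in the *Trim28* f/f mice. Without the 12 cells the sums were 202 and 208 against 214 and 177 CPM, and none of the 10 markers was at 0 in all 4 mice. By the same limit 5 cells were rich in intercalated, 4 in endothelial, 2 in immune and 1 in stromal markers, and 22 cells were rich in at least 1 of these 5 types. By that limit 42 cells were rich in 8 loop of Henle markers, the rule genes among them, as 6, 4, 26 and 6 cells in mice 1 to 4. Their median rule sum was 42.5 UMIs against 11 in the rest. Ureteric bud tip markers, which include *Calb1*, were abundant in 12 cells, as 7, 1, 2 and 2 cells. These had a median rule sum of 71.5 against 13 UMIs. The rule sum chose the cells, so it cannot tell whether the cells rich in these 2 lists are of another type. A further 11 cells were rich in erythroid markers, as 2, 5, 2 and 2 cells. The part of these 3 kinds of cells in the results below was not tested. Erythroid genes summed to 10986 CPM in mouse 2 and to between 846 and 3222 CPM in the others. Counts of called genes are therefore given with and without the 12 cells, a setting added after the data were seen, and so are the counts and medians of gene lists where they differed.

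Between the genotypes, 15 of 9926 tested genes (0.151%) differed in the selected cells, of which 13 (0.131%) were higher and 2 (0.0201%) lower in *Trim28* Δ/Δ mice (edgeR's quasi-likelihood test on UMIs summed per mouse, 2 against 2, Benjamini-Hochberg adjusted p under 0.05), and 745 passed an unadjusted p of 0.05. The sums held 1263246 and 1282309 UMIs in mice 1 and 2 and 2381894 and 1377197 UMIs in mice 3 and 4. Without the 12 cells, 12 of 9532 genes (0.126%) were called, and 7 of the 15 kept their call. Leaving out 1 mouse, 7 of the 15 kept the call without mouse 1, 2 without mouse 2, 0 without mouse 3 and all 15 without mouse 4, where the counts of all calls were 11, 4, 0 and 130. Without 1 mouse the log2 change of *Meg3* ran from 3.84 to 4.67, that of *Trim28* from -2.24 to -1.997 and that of *Acmsd* from 3.67 to 5.58, and none of the 15 turned its direction. With 1 mouse left in a genotype, it was assumed to vary as the other genotype does. P-values measure only the spread between these 4 mice. Positions below are of GRCm38, and whether the counting used strand was not given by the sources at hand.

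*Trim28* itself (ENSMUSG00000005566, chromosome 7, 12999114 to 13031035) stood at 26.1 and 30.4 CPM in the *Trim28* Δ/Δ and at 110 and 134 CPM in the *Trim28* f/f mice, and the groups were far apart. It fell by 2.11 on the log2 scale (SE 0.22, edgeR adjusted p = 0.0126). UMIs of it were found in 21 of 56 and 19 of 48 cells of mice 1 and 2 and in 84 of 102 and 42 of 53 cells of mice 3 and 4. The assay counts the ends of transcripts, which lie outside the floxed segment, so these counts do not check the deletion itself. *Trim28* overlaps *Zbtb45* on the opposite strand. Of 14 tested genes of TRIM28 and its partners, only *Trim28* was called, where 0.0201% of all genes were called lower, and 3 were lower at an unadjusted p of 0.05, where 2.64% were. Their median log2 change was -0.10, against -0.01 over all tested genes. *Uhrf1* and *Dnmt1*, which maintain DNA methylation, passed an unadjusted p of 0.05 with changes of -0.69 and -0.58 (edgeR adjusted p = 0.413 and 0.604), and were named after their values were seen. Neither passed it without the 12 cells, with changes of -0.50 and -0.45 (edgeR adjusted p = 0.977 and 0.991).

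Of the 5 genes that were higher and kept their call without the 12 cells, 3 are non-coding. *Meg3* (chromosome 12, 109541001 to 109571726), the maternally expressed non-coding RNA of an imprinted cluster, stood at 504 and 316 CPM in the *Trim28* Δ/Δ mice against 26.4 and 16.0 CPM. Its log2 change was 4.21 (SE 0.32, edgeR adjusted p = 0.00205), and 4.30 without the 12 cells. *Gm11100* (chromosome 14, 13918444 to 13949558), a processed transcript with no known role that overlaps *Thoc7* on the other strand, stood at 279 and 264 CPM against 6.72 and 3.63 CPM. It had the smallest adjusted p of all genes (log2 change 5.59, SE 0.28, edgeR adjusted p = 0.000116). *Gm49708* (chromosome 16, 90341595 to 90349642), another processed transcript, stood at 64.1 and 108 CPM against 7.14 and 9.44 CPM (log2 change 3.39, SE 0.34, edgeR adjusted p = 0.0104). In each of these genes both *Trim28* Δ/Δ mice lay many times above both controls.

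*Inmt* (chromosome 6, 55170626 to 55175043), which encodes an N-methyltransferase of indolamines, stood at 54.6 and 63.2 CPM against 6.72 and 6.54 CPM (log2 change 3.12, SE 0.29, edgeR adjusted p = 0.00705). *Fbxw19* (chromosome 9, 109476654 to 109495875), an F-box gene with close relatives in the mouse genome among which reads may be split, had 23 and 19 UMIs, in 15 and 10 cells, in the *Trim28* Δ/Δ mice and no UMI in the *Trim28* f/f mice. Over each group the 42 UMIs were 16.5 CPM, 20.7-fold above a floor of 0.798 CPM, which 3 counts would give (edgeR adjusted p = 0.0415). This fold is of pooled UMIs and leaves out the counting error of the 42 UMIs and the spread between mice. None of its UMIs lay in the 12 cells. Without mouse 3 the edgeR adjusted p was 0.226 for *Gm11100* and 0.824 for *Meg3*, *Inmt*, *Gm49708*, *Fbxw19* and *Trim28*, while the log2 changes of *Gm11100*, *Meg3*, *Inmt*, *Gm49708* and *Trim28* were 6.19, 4.67, 3.16, 3.18 and -2.23.

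*Tfap2a* (chromosome 13, 40715302 to 40738376), an AP-2 transcription factor, was the other gene that fell. It stood at 3.96 and 3.90 CPM in the *Trim28* Δ/Δ mice and at 33.6 and 26.9 CPM in the *Trim28* f/f mice (log2 change -2.95, SE 0.40, edgeR adjusted p = 0.0415; without mouse 3, -2.74 and 0.824). UMIs of it were found in 5 and 5 cells of mice 1 and 2 and in 36 and 24 cells of mice 3 and 4. In 15 other settings that left out no mouse *Tfap2a* was called in 11, and its log2 change ran from -3.19 to -1.71 over all other settings. Its paralog *Tfap2b* stood at 360, 281, 312 and 285 CPM in mice 1 to 4, where the groups overlap. *Tfap2a* overlaps antisense transcripts, so its reads cannot be told apart from theirs unless strand was used.

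The promoters of 5 of these genes are shown because the differences lie at their transcripts, as 300 bases each, 250 before and 50 after the start, from RefSeq on GRCm38.p6. *Gm49708* had no entry. Capitals mark matches to TGCCGC on either strand, letters bound by ZFP57, a KRAB zinc finger protein that recruits TRIM28 to imprinted loci. The *Meg3* sequence held 1 match and the other 4 none, and 11.6% of 32851 promoters of this length held the letters. Positions are chr14:13918194-13918493 (plus strand) for *Gm11100*, chr12:109540746-109541045 (plus) for *Meg3*, chr6:55174941-55175240 (minus) for *Inmt*, chr9:109495805-109496104 (minus) for *Fbxw19* and chr13:40734871-40735170 (minus) for *Tfap2a*. *Meg3* and *Tfap2a* have 2 entries each, of which the first is shown and the other held no match, and both entries of *Tfap2a* lie inside the gene, downstream of its outermost annotated start.
Gm11100: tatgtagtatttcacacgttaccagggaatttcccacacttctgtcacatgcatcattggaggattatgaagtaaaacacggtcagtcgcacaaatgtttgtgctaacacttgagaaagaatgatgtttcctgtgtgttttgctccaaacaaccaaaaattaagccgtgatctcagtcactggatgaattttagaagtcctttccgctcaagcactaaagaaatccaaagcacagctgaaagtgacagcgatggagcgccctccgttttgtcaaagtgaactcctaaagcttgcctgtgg
Meg3: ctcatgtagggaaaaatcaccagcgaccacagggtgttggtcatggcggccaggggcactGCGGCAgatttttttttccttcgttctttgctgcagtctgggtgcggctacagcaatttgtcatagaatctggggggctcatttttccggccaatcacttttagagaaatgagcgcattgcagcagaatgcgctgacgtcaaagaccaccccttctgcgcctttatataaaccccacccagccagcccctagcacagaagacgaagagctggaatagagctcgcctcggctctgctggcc
Inmt: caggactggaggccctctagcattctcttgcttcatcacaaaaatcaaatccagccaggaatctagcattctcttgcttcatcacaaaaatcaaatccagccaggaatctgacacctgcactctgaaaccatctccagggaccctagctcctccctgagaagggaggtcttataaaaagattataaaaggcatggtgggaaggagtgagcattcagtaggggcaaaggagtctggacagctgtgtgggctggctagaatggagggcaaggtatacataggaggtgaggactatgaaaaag
Fbxw19: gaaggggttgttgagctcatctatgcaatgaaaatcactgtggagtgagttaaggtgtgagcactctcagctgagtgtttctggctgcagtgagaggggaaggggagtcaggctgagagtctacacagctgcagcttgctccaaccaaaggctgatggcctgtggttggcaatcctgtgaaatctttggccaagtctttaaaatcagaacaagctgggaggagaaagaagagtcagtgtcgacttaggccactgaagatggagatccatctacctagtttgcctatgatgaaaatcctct
Tfap2a: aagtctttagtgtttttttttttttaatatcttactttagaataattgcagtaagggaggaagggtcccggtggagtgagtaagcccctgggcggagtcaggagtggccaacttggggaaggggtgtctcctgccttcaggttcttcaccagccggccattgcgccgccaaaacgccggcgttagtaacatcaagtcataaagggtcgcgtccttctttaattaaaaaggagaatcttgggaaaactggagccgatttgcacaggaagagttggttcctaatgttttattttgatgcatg

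The other 8 called genes lost their call without the 12 cells rich in proximal tubule markers. They are *Acmsd*, *Keg1*, *Defb29*, *Fbp2*, *Nat8*, *Ttc36*, *Hdc* and *Mpv17l*, and between 38.5% and 94.5% of their UMIs in the *Trim28* Δ/Δ mice lay in these cells, against 0% to 28.3% for the 7 that kept it. *Keg1*, a gene of the glycine N-acyltransferase family, stood at 77.6 and 116.98 CPM in mice 1 and 2 and at 18.5 and 13.8 CPM in mice 3 and 4 (log2 change 2.54, SE 0.29, edgeR adjusted p = 0.0167). Without the 12 cells it stood at 8.99 and 20.1 CPM against 13.5 and 5.45 CPM, and the groups overlapped (log2 change 0.51, edgeR adjusted p = 0.99994). *Hdc*, which encodes histidine decarboxylase, went from 72.0 and 121 CPM against 24.4 and 20.3 CPM to 18.9 and 11.5 CPM against 13.5 and 4.67 CPM. *Ttc36* went from 373 and 391 CPM against 128 and 167 CPM to 142 and 87.2 CPM against 101 and 80.2 CPM. *Acmsd*, *Defb29*, *Fbp2* and *Nat8* were too low to be tested without these cells. *Mpv17l* had a log2 change of 1.58 with and 1.21 without these cells (edgeR adjusted p = 0.0494 and 0.389).

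**Figure D4:**
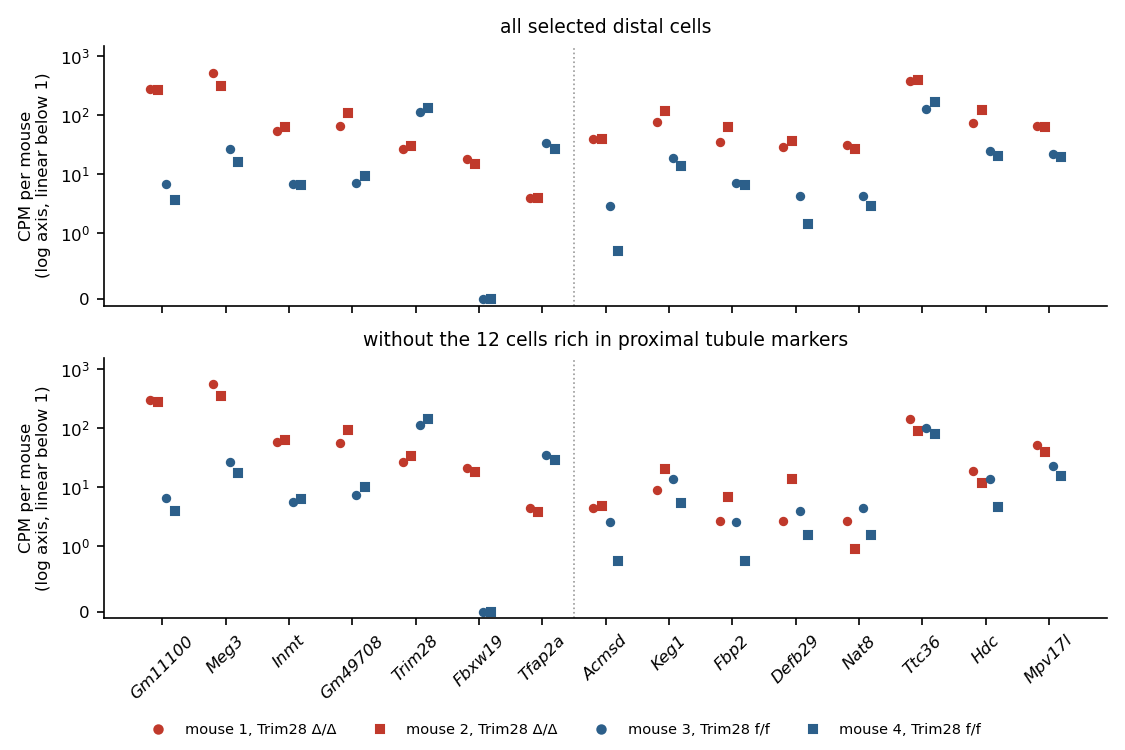
CPM per mouse (log axis, linear below 1) of the 15 genes called between the genotypes, in all 259 selected cells (top) and without the 12 cells rich in proximal tubule markers (bottom). Left of the dotted line, the 7 genes that kept their call stay apart between *Trim28* Δ/Δ (red) and *Trim28* f/f mice (blue), and right of it the 8 others lie closer together in the lower panel, where *Mpv17l*, *Acmsd* and *Fbp2* still do not overlap between the genotypes.

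In the fit without the 12 cells, 5 further genes were called, which were named after their values were seen. *Rian*, a second non-coding RNA of the *Meg3* cluster on chromosome 12 (109603940 to 109661716), stood at 97.9 and 64.2 CPM in the *Trim28* Δ/Δ mice and at 11.3 and 1.56 CPM in the *Trim28* f/f mice (log2 change 3.42, SE 0.46, edgeR adjusted p = 0.0105, and 0.0684 with the 12 cells). *Slitrk4*, a neuronal membrane protein gene, stood at 23.4 and 18.2 CPM against 1.74 and 0.779 CPM (edgeR adjusted p = 0.0214), and *Dapl1* at 24.3 and 28.7 CPM against 3.91 and 4.67 CPM (edgeR adjusted p = 0.0429). *Klf2* and *Ly6c1*, the latter with close paralogs, are abundant in endothelial cells, at 146 to 492 CPM and 78.4 to 236 CPM, and did not pass the test when cells rich in endothelial or other markers were left out as well (edgeR adjusted p = 0.185 and 0.0789). Their log2 changes were 2.55 and 3.17 before and 2.297 and 3.32 after that step. *Klf2* stood in loop cells at 65.3 and 45.4 CPM in the *Trim28* Δ/Δ mice and at 13.5 and 18.96 CPM in the *Trim28* f/f mice. *Ly6c1* stood there at 68.7 and 43.3 CPM against 11.4 and 14.8 CPM. With those cells left out, 10 genes were called in all.

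Imprinted genes were called in 1 case. Of 21 tested, *Meg3* was called, where 0.131% of all genes were called higher. At an unadjusted p of 0.05, 2 were higher and 1 lower, where 4.87% and 2.64% of all genes were, and the median log2 change was -0.06. Of 20 tested without the 12 cells *Meg3* and *Rian* were called, where 0.126% of all genes were, and the median was -0.03. The other 2 beside *Meg3* were *Rian* and *Zdbf2* (log2 change -1.35, edgeR adjusted p = 0.389), named after their values were seen.

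Transport genes of the distal convoluted tubule were not called in either direction. Of 14 tested beside the rule gene *Slc12a3*, 3 were higher and 0 lower at an unadjusted p of 0.05, where 4.87% and 2.64% of all genes were (5 and 0 without the 12 cells, where 3% and 2.19% were), and their median log2 change was 0.50, against -0.01 over all tested genes, and 0.51 without the 12 cells. Summed with *Slc12a3*, the list stood at 7585 CPM in mouse 1 and at 4823, 4824 and 4842 CPM in mice 2 to 4, so that mouse 1 alone stood apart. *Slc12a3*, a rule gene and therefore a description, stood at 973, 252, 295 and 402 CPM in mice 1 to 4. *Kcnj16*, a subunit of the basolateral potassium channel, stood at 92.6 and 56.9 CPM against 24.4 and 41.4 CPM (log2 change 1.21, SE 0.32, edgeR adjusted p = 0.286). *Fxyd2* stood at 1467 and 1703 CPM against 1009 and 1141 CPM (0.55, SE 0.19, edgeR adjusted p = 0.515), all below its 2564 CPM in free RNA. *Sgk1*, the aldosterone-induced kinase, stood at 19.8 and 36.7 CPM against 13.0 and 5.81 CPM (1.48, SE 0.46, edgeR adjusted p = 0.413). None of these 3 genes passed the test over all genes. *Wnk4* stood at 66.5 CPM in mouse 1 and between 32.3 and 35.6 CPM in the others, so that the other 3 mice of both genotypes lay close together. Mouse 1 is also the mouse with the largest share of *Slc12a3*-rich cells, and the part of this share in the values was not tested. *Kcnj10*, *Stk39* and *Nedd4l* had log2 changes of -0.40, -0.34 and -0.22. *Trpm6*, *Slc41a3*, *Egf* and *Pvalb* were too low to be tested. *Atp1b1*, *Klhl3*, *Cnnm2*, *Bsnd* and *Wnk1* had log2 changes of 0.29, 0.59, 0.59, 0.44 and 0.00.

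Genes of the connecting tubule and of calcium transport were not called either. Of 13 tested, 3 were higher and 0 lower at an unadjusted p of 0.05, where 4.87% and 2.64% of all genes were, and the median log2 change was 0.59. Of 14 tested without the 12 cells 4 were higher and 0 lower, where 3% and 2.19% of all genes were, with a median of 0.77. *Pth1r*, the parathyroid hormone receptor, stood at 148 and 99.8 CPM against 46.6 and 63.9 CPM (log2 change 1.17, SE 0.25, edgeR adjusted p = 0.172). *Atp2b1*, the calcium pump, stood at 268 and 299 CPM against 186 and 189 CPM (0.59, SE 0.17, adjusted p = 0.384), and *Trpv6* at 22.2 and 18.7 CPM against 4.62 and 13.1 CPM (1.30, SE 0.48, adjusted p = 0.547). The calbindins overlapped between the genotypes: *S100g* stood at 4992, 678, 1410 and 2515 CPM and *Calb1* at 564, 87.3, 137 and 215 CPM in mice 1 to 4, with the *Trim28* Δ/Δ mice at the top and the bottom. *Trpv5* stood at 19.8, 6.24, 2.94 and 5.81 CPM. The subunits of the epithelial sodium channel, *Scnn1a*, *Scnn1b* and *Scnn1g*, had log2 changes of 0.00, -0.15 and -0.38.

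Of the transcription factors of the distal nephron 1 was called. Of 18 tested beside the rule gene *Emx1*, *Tfap2a* was called, where 0.0201% of all genes were called lower. At an unadjusted p of 0.05, 5 including it were lower and 0 higher, where 2.64% and 4.87% of all genes were, and the median log2 change was -0.34. Without the 12 cells *Tfap2a* was called, where 0.126% of all genes were called. By the unadjusted limit 3 including it were then lower and 0 higher, where 2.19% and 3% of all genes were, and the median was -0.22. *Emx2* stood at 149 and 172 CPM against 255 and 288 CPM (log2 change -0.77, SE 0.18, edgeR adjusted p = 0.214). *Lhx1* stood at 224 and 173 CPM against 263 and 440 CPM (-0.82, SE 0.25, adjusted p = 0.413), *Pax2* at 79.2 and 102 CPM against 124 and 158 CPM (-0.64, SE 0.21, adjusted p = 0.487) and *Sim1* at 80.7 and 81.9 CPM against 107 and 128 CPM (-0.53, SE 0.19, adjusted p = 0.531). None of these 4 genes passed the test over all genes. *Emx1* (0.31), *Pou3f3* (-0.08) and *Gata3* (-0.36) had smaller changes, and *Irx1*, a factor of the loop and its precursors, stood below 16 CPM in each mouse.

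Several lists moved with a single mouse. Glycolysis genes summed to 10867 CPM in mouse 3 and to between 5709 and 6174 CPM in the others, and hypoxia response genes to 2011 CPM against 587 to 740.1 CPM. Of 16 and 12 tested, 0 were called, 5 and 3 were lower at an unadjusted p of 0.05 and 0 higher, where 2.64% and 4.87% of all genes were, with medians of -0.58 and -1.03. These became 5 and 6 lower without the 12 cells, where 2.19% of all genes were, with medians of -0.48 and -1.06. *Ldha*, which encodes lactate dehydrogenase, stood at 539, 543, 1385 and 598 CPM in mice 1 to 4, and *Bnip3*, a mitochondrial protein gene, at 91.0, 95.9, 362 and 59.5 CPM, so that the other *Trim28* f/f mouse lay near the *Trim28* Δ/Δ mice. The same sums in endothelial cells, 7265 CPM for glycolysis in mouse 3 against 3460 to 3709 CPM, stood apart in that mouse too. Of the 9 tested proximal tubule markers, all 9 were higher at an unadjusted p of 0.05 and 0 were called, with a median of 1.75, which became -0.14 over 7 genes without the 12 cells. Markers of erythroid cells (median 1.57, and 1.80 without the 12 cells), immune cells (1.08 and 1.21), intercalated cells (0.97 and 1.01) and stroma (0.86 and 0.95) had 0 calls each. Without the 22 cells rich in at least 1 of 5 other types, the 4 medians were 1.83, 0.52, 0.68 and -0.48. At an unadjusted p of 0.05 none of these markers was higher or lower in the full set. Without the 12 cells 3 of 4 erythroid, 3 of 6 intercalated and 1 of 3 stromal markers were higher, where 3% of all genes were.

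Among the remaining lists, none held a call. Of 16 tested genes of junctions and epithelium, 3 were higher at an unadjusted p of 0.05, where 4.87% of all genes were, with a median of -0.03 (1, against 3% of all genes, and 0.03 without the 12 cells), and *Epcam*, *Cdh16*, *Cldn7* and *Cdh1* had log2 changes of -0.09, 0.54, 0.42 and 0.24. Of 10 genes of injury and inflammation, 3 were higher by the same limit (median 0.40), and 2 of 9 without the 12 cells (median 0.13), against the same shares of all genes, among them *Spp1* and *Clu* (0.97 and 1.15, SE 0.27 and 0.39). The medians were 0.03 for 11 p53 targets (0.05 without the 12 cells), -0.09 for 12 immediate early genes (-0.22), -0.26 for 43 S phase genes (-0.08), -0.21 for 54 G2/M phase genes (-0.07) and -0.27 for 83 ribosomal protein genes (-0.25). Of the S phase and of the G2/M phase genes 3 each were lower at an unadjusted p of 0.05, where 2.64% of all genes were, and 1 each without the 12 cells, where 2.19% were. Of the 12 immediate early genes 1 was lower by this limit, and 2 of 10 without the 12 cells, against the same shares. Medians for markers, with and without the 12 cells, were 1.04 and 0.08 for the loop of Henle, -0.71 and -0.51 for the macula densa, -0.27 and -0.14 for collecting duct principal cells, -0.23 and -0.08 for the ureteric bud tip, -0.18 and -0.02 for nephron progenitors, 0.34 and 0.54 for podocytes and 0.25 and 0.31 for endothelium, and rest on 2 to 7 genes each. At an unadjusted p of 0.05, 2 of 5 loop markers were higher and 1 of 2 macula densa and 1 of 4 ureteric bud tip markers lower, both with and without the 12 cells. By this limit 4.87% of all genes were higher and 2.64% lower, and 3% and 2.19% without the 12 cells.

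Whether the genotype effect differed from that in other cells was tested as an interaction with the mouse as a block, and both tests below share the sums of the selected cells. In both tests, the fits without the 12 cells also left out the loop or duct cells rich in the same proximal tubule markers. Against loop of Henle cells, which arise from the same progenitors, it differed for 92 of 9951 genes (0.925%), of which 77 had a more positive and 15 a more negative change in the selected cells. With the rule applied after thinning the balance turned, with 9 and 32 of 41 genes, and DESeq2 gave 17 genes in all. Without the 12 cells 21 of 9759 genes (0.215%) were called, all 21 of them among the 92, and leaving out mouse 4 gave 217. Among the 6 genes with the smallest adjusted p were *Calml4*, *S100g*, *Igfbp5*, *Pdzk1* and *Maf*, and 2 of the 6 kept the call without the 12 cells. *S100g* stood in loop cells at 3229 and 1004 CPM in the *Trim28* Δ/Δ mice and at 230.4 and 337 CPM in the *Trim28* f/f mice (log2 change 2.90, edgeR adjusted p = 0.0599), while in the selected cells its change was 0.52. The difference was -2.69 (SE 0.27, edgeR adjusted p = 5.06e-05) and -2.42 without the 12 cells (edgeR adjusted p = 0.00136). *Igfbp5*, an insulin-like growth factor binding protein, stood in loop cells at 12.7 and 22.4 CPM against 92.0 and 75.8 CPM (log2 change -2.29), and its change in the selected cells was 0.35 (difference 2.69, SE 0.33, edgeR adjusted p = 0.000536, and 0.00384 without the 12 cells). Stromal markers summed in the same loop cells to 31.3 and 35.6 CPM against 154.7 and 340.1 CPM, and *Col1a1* and *Col3a1* of the stroma are among the 21 genes, named after their values were seen. The part of stromal cells in these differences was not tested. For *Pdzk1*, *Calml4* and *Maf* the differences of 2.22, 2.39 and 2.37 became -0.22, 1.05 and 0.53 in the fit without the 12 cells. Those of *Calml4* and *Maf* turned negative with the rule applied after thinning.

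The 7 genes that kept their call had these levels in loop cells. *Meg3* stood there at 1188 and 561 CPM against 38.8 and 69.3 CPM, *Gm11100* at 121 and 161 CPM against 4.84 and 16.0 CPM, *Fbxw19* at 16.7 and 23.1 CPM against 0 and 1.19 CPM and *Trim28* at 22.0 and 23.8 CPM against 85.5 and 105 CPM. *Inmt* stood at 11.998 and 20.3 CPM against 4.84 and 4.74 CPM and *Gm49708* at 57.99 and 61.5 CPM against 12.5 and 15.4 CPM. Of the 15 called genes, 5 differed from loop cells, all of them among the 8 that lost their call. Without the 12 cells *Keg1*, *Ttc36* and *Hdc* did not pass that test (edgeR adjusted p = 0.893 and above), and *Fbp2* and *Defb29* were too low to be tested. *Tfap2a* stood at 0.667 to 2.96 CPM in loop cells of the 4 mice. In loop cells alone 39 of 10275 genes (0.38%) were called.

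Against collecting duct principal cells, which arise from the ureteric bud and keep *Trim28*, the effect differed for 63 of 10811 genes (0.583%), 61 more positive and 2 more negative, and for 3 of 10724 (0.028%) without the 12 cells. Leaving out mouse 3 gave 129 and leaving out mouse 4 gave 556. The 3 genes were *Meg3*, *Trim28* and *Tfap2a*. *Meg3* stood in duct cells at 25.9 and 40.0 CPM against 29.8 and 20.7 CPM (difference of log2 changes 3.83, SE 0.41, edgeR adjusted p = 0.00335). *Trim28* stood there at 88.0 and 113 CPM against 77.1 and 97.4 CPM (-2.31, SE 0.25, adjusted p = 0.00335). *Tfap2a* stood in duct cells at 29.3 and 43.1 CPM against 31.3 and 27.5 CPM, so that all 4 mice lay near the level of the *Trim28* f/f mice in the selected cells (-3.23, SE 0.42, adjusted p = 0.00711). In the 123 cells left out by the duct limit, *Tfap2a* stood at 18.2 and 11.6 CPM against 22.9 and 13.6 CPM, where the genotypes overlapped, and *Trim28* at 36.4 and 50.2 CPM against 93.2 and 81.4 CPM. *Gpx3*, *Lrp2* and *Keg1*, also among the 6 with the smallest adjusted p, had differences of 3.02, 2.43 and 2.90 that became 0.70, 0.53 and 0.44 without the 12 cells. *Gm11100* differed by 6.05 (SE 0.86, edgeR adjusted p = 0.00969), and by 4.37 without the 12 cells (edgeR adjusted p = 0.0945). In duct cells alone and in endothelial cells alone 0 of 11187 and 0 of 11223 genes were called by edgeR (0% each), where 471 and 709 passed an unadjusted p of 0.05.

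**Figure D5:**
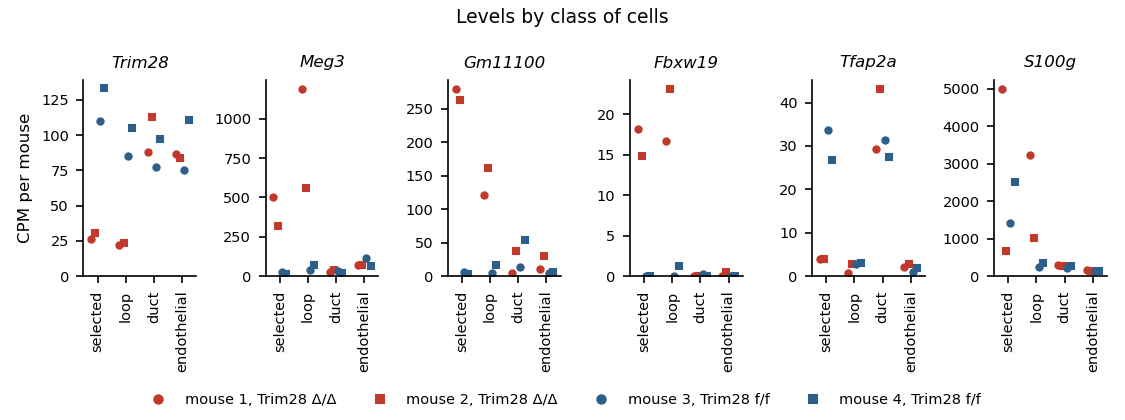
CPM per mouse of 6 genes in selected distal, loop of Henle, collecting duct principal and endothelial cells, with *Trim28* Δ/Δ mice in red and *Trim28* f/f mice in blue. *Trim28* is low and *Meg3* and *Gm11100* are high in selected and loop cells of the *Trim28* Δ/Δ mice, and *Tfap2a* is low in their selected cells, at 3.96 and 3.90 CPM, but not in their duct cells.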

How the data were processed

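The authors deposited 1 pooled single-cell RNA-seq matrix of UMI counts (3921239 barcodes, 32285 genes and 12 tags), made with Cell Ranger 6.0.0 by the study's methods, whereas the file header names version 4. Bulk samples of the series were not analysed here. Cells needed at least 6890 UMIs, 200 genes, at most 10% mitochondrial UMIs and a top tag of at least 50 counts and 80% of tag counts. Of 19273 cells past the filters on UMIs, genes and mitochondrial share, 10098 had 1 dominant tag and 6495 a tag that the deposited list names. Each barcode was listed once and there was 1 library, so no barcode is shared between libraries. Scrublet marked 382 cells, 25 of them selected, and these were kept. The 4 mice held between 23560363 and 48616657 UMIs.

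UMI counts were summed per mouse and tested with edgeR 4.0.16 in R 4.3.3 (quasi-likelihood, TMM scaling), with DESeq2 1.42.0 as an alternative. Each SE of a log2 change is the size of the change divided by the square root of edgeR's F statistic. It is not a fitted standard error, and no interval was built from it. Shares were tested by exact permutation in scipy 1.17.1. On simulated data for the genotype comparison (9658 genes) 23.5% of 2-fold and 89.8% of 4-fold changes were recovered with 6 false calls, and for the interaction with loop cells (9781 genes) 33.3%, 78.6% and 2. The simulated data held no mouse that stands apart and no cells of other types, so the recovery leaves out both. Members, gene lists and tests were chosen with earlier results of these data known. Genes were named by rule: of the called genes without overlap between genotypes, the 12 with the smallest adjusted p in each direction, any gene of the distal transport and transcription factor lists, called members or up to 4 most abundant ones of the other lists, the 6 with the smallest adjusted p of each interaction and the 8 rule genes. A few genes that this rule names are not reported here.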

Additional observations from a re-analysis of the deposited data

Results flagged for a closer look

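For genes with the smallest adjusted p, the genotype effect in the selected distal cells differed from that in other cells, by a test of the difference of log2 changes (edgeR with the mouse as a block). Against loop of Henle cells those reported among the 6 with the smallest adjusted p were *Calml4* (2.39), *S100g* (-2.69), *Igfbp5* (2.69), *Pdzk1* (2.22) and *Maf* (2.37). Of these, *S100g* and *Igfbp5* kept the call without the selected, loop and duct cells rich in proximal tubule markers, at -2.42 and 2.51. With the rule applied after thinning, *Calml4* and *Maf* turned negative. Against collecting duct principal cells they were *Gpx3* (3.02), *Lrp2* (2.43), *Meg3* (3.83), *Keg1* (2.90) and *Trim28* (-2.31), of which *Meg3* and *Trim28* kept it, at 3.76 and -2.16.

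Cells that met the rule were also found outside the 4 mice: 72 cells carried a tag that the deposited list assigns to no mouse, which is 2.0% of 3603 such cells (95% Clopper-Pearson interval 1.57 to 2.51). They entered no comparison.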

How the results depend on the processing

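The number of genes called between the genotypes in the selected cells (15) moved with most choices. It was 166 with a top tag of at least 90%, 38 with 70%, 7 with a rule sum of at least 10 UMIs, 73 with 3, 24 with the rule applied after thinning and 71 without cells marked by Scrublet. It was 251 with no filter on low counts and 34 by DESeq2, and, in settings added after the data were seen, 25 in cells without and 8 in cells with *Slc12a3*. Leaving out 1 mouse gave between 0 (517 at an unadjusted p of 0.05, edgeR) and 130 calls. Of the 15, all 15 kept their call under DESeq2, 12 under RLE scaling, 9 in cells without and 5 in cells with *Slc12a3*, 6 with a rule sum of at least 10 UMIs and 6 after thinning. RLE scaling moved the median log2 change of all genes from -0.0074 to -0.013.

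The 92 differences from loop cells became 172 with no filter, 17 by DESeq2, 41 after thinning (9 more positive and 32 more negative, against 77 and 15), 21 without the 12 cells and 65 to 217 without 1 mouse. The 63 differences from duct cells became 293, 11 (6 and 5, against 61 and 2) after thinning, 3 and 81 to 556. *Calml4* against loop cells turned to -0.53 and *Maf* to -1.12 after thinning, and *Pdzk1* to -0.22 without the 12 cells. The cause of these turns was not tested. For all these differences, the setting without the 12 cells also left out loop or duct cells rich in the same markers.

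The difference in the share of selected cells was -0.269 points in cells without *Slc12a3* and between -0.0363 and 1.03 points without 1 mouse. The difference of the mean *Calb1*- or *S100g*-rich shares was below 0 in all settings run, from -1.06 points with a limit of 20 UMIs, where mouse 1 had the highest share, to -21.9 points with a top tag of at least 90%, and between -15.1 and -2.67 points without 1 mouse. No paired analysis was possible because nothing in the tag list or the labels pairs mice of both genotypes.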
